A study of Mus musculus with 24 samples.

Results

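Transient morula peak genes are genes whose level in intact mouse embryos was higher at the morula than at both the 8-cell stage before it and the blastocyst stage after it. They were chosen from the authors' deposited TPM table (a level scaled for transcript length and for the library total). A gene needed a mean of 20 TPM or more in control morulae, which 3702 of the 15625 genes in the table had. These were ranked by a peak score, the log2 ratio of the control morula mean plus 1 to the larger of the control 8-cell and control blastocyst means plus 1, and the 150 of highest rank were taken. The 12 control embryos chose the members, so the rise and fall in control embryos are given as levels with no test. The 12 split embryos had no part in the choice.

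All 24 embryos were ICR mouse embryos made by in vitro fertilization, and each gave its own Smart-seq2 library, which copies polyadenylated RNA from an oligo(dT) primer. Controls were left intact: 4 at the 8-cell stage, 5 morulae and 3 blastocysts. Split embryos grew from single blastomeres that were parted by micromanipulation at the late 2-cell stage, after biopsy medium, and were then cultured each on its own in a modified sodium hyaluronate gel, so both the separation and, as far as the labels say, the gel set them apart from controls. There were 6 split morulae from 3 sister pairs and 6 split blastocysts from 3 other pairs, and no split 8-cell embryo. Each library is a whole embryo, so for any gene fewer cells of a type and less RNA per cell cannot be told apart.

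The morula is the compacted ball of cells that comes before the blastocyst. While it forms, the outer cells polarise and start on the path to trophectoderm, the epithelium that later pumps fluid into the blastocyst cavity, and the inner cells keep the pluripotent programme. Transcription from the embryo's own genome has by then replaced most of the RNA stored in the egg. TPM is a share of the library, so a peak at the morula is a share that rose and then fell. Synthesis and loss of transcripts were not measured.

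Libraries held 11.3 M to 38.5 M counted reads, where M stands for mega. The control 8-cell embryos were the deepest, at 26.3 to 38.5 M, and the control blastocysts the shallowest, at 11.3 to 12.7 M, while split morulae had 14.1 to 18.9 M and split blastocysts 13.4 to 25.2 M. Genes above 1 TPM numbered 9174 to 9775 at 8 cells, 9602 to 10230 in control morulae and 11131 to 11837 in control blastocysts. In split morulae there were 8222 to 9805, the lowest in pair 3 blastomere 1, and in split blastocysts 10011 to 11089. Markers of the stages' own lineages are counted with the gene lists near the end. Lists for cells that an embryo sample could also carry held no member. The cumulus and granulosa list had 7 of 14 genes at 0 in every library, Amh, Foxl2 and Fshr among them, and a summed level of 13.7 CPM (counts scaled to the library total) or less in each embryo. The sperm and spermatid list had 3 of 14 genes at 0, Tnp1 among them, with 5.94 to 35.6 CPM in split morulae and 17.0 to 56.9 CPM in split blastocysts. The blood list had 4 of 14 genes at 0, Ptprc and Adgre1 among them. Its other genes summed to 2.11 to 119 CPM in split morulae and 11.9 to 50.7 CPM in split blastocysts. The fibroblast list had 3 of 12 genes at 0, Col1a2, Col3a1 and Lum, and summed to 0 to 11.3 CPM in split morulae and 17.3 to 39.3 CPM in split blastocysts. The part of these levels in the stage difference of the members was not tested.

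The peak scores ran from 4.10 to 0.99, with a median of 1.28, and 22 members scored 2 or more. At the threshold the change was gradual: the last members, Gm12166, Adss and Ppil1, scored 0.99, and the genes just outside, Dio1, Hat1 and Ddx56, scored 0.99, 0.98 and 0.98. The larger flanking mean was that of the blastocyst for 92 members and that of the 8-cell stage for 58. In 94 members (62.7%) all 5 control morulae were above all 4 8-cell embryos and all 3 control blastocysts, which held for 1.96% of the genes in the table, and nothing is read from this, since the rule used these embryos. The members' mean read count per control morula had a median of 1276.7 and ranged from 10 to 358309. Only 10 members had fewer than 100 reads on average, and 7 were listed at 0 TPM in 1 or more control morulae. Of the 150 symbols, 140 matched a RefSeq gene. Of those, 124 were protein coding, 7 were pseudogenes, 5 were long noncoding RNAs, 2 were small nucleolar RNAs, 1 was a small nuclear RNA and 1 was of another RNA class.

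The promoters of 4 of the 8 members of highest rank show what lies just upstream of genes with the steepest peaks. Promoter entries (250 bases before to 50 bases after the annotated start, RefSeq, build GRCm38.p6, while the deposited values were made on GRCm39) were found for 100 members. Capitals mark matches, on either strand, to short motifs named after factor families. The KLF motif is CCACCC, the TEAD motif is GGAATG, the GATA motif is AGATAA, the TATA box is TATAAA, the NF-Y motif is CCAAT and the TFAP2 motif is GCCNNNGGC, each also searched as its reverse complement. Each sequence is written 5′ to 3′ on the gene's own strand. Nppb lies on the + strand at chr4:147985650-147985949, Noto on the + strand at chr6:85423636-85423935, Akr1c14 on the + strand at chr13:4059341-4059640 and Zfp951 on the - strand at chr5:104859978-104860277.
Nppb: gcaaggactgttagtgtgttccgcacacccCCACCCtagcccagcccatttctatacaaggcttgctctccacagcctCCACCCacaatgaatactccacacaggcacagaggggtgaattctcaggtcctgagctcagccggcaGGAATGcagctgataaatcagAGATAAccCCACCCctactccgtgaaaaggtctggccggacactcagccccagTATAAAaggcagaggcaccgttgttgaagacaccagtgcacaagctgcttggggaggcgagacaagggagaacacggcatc
Noto: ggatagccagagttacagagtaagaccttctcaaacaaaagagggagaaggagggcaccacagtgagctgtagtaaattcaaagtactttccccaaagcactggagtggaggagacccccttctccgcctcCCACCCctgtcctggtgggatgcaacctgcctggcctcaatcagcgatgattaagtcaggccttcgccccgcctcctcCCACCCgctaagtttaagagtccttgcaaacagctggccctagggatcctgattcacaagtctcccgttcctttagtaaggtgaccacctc
Akr1c14: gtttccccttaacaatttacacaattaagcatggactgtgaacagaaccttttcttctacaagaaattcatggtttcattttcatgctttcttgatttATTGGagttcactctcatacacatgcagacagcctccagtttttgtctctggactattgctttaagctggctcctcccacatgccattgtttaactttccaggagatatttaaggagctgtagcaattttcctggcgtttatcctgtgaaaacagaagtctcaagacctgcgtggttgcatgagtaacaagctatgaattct
Zfp951: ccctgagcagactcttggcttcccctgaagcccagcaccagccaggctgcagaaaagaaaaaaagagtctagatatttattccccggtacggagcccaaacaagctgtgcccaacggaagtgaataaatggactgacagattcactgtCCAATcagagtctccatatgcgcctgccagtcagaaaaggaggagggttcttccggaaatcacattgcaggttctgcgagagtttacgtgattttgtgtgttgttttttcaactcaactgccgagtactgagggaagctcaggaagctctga

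The Nppb window held 3 KLF matches, 1 TEAD match, 1 GATA match and 1 TATAAA match. Noto held 2 KLF matches, and Akr1c14 and Zfp951 held 1 NF-Y match each. Over all 117 promoter entries of members, 24.8% held the TFAP2 letters, against 16.6% of all 32851 entries and 22.9% of the entries of genes with a control morula mean of 20 TPM or more. The corresponding shares were 32.5%, 31.5% and 32.6% for KLF, 14.5%, 14.7% and 11.4% for TEAD, 40.2%, 37.4% and 40.5% for NF-Y, and 6.84%, 11.2% and 6.31% for GATA. The TATA box letters stood in 3.42% of member entries, 13.6% of all entries and 7.07% of those of the expressed genes. ACAAT or its reverse complement (SOX; not capitalised above, and able to overlap an NF-Y match) stood in 22.2%, 31% and 21.6%. The median GC content was 57% for member entries, 60.3% for the expressed genes and 52.7% for all. These are matches of letters in a window and say nothing of binding.

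**Figure D1:**
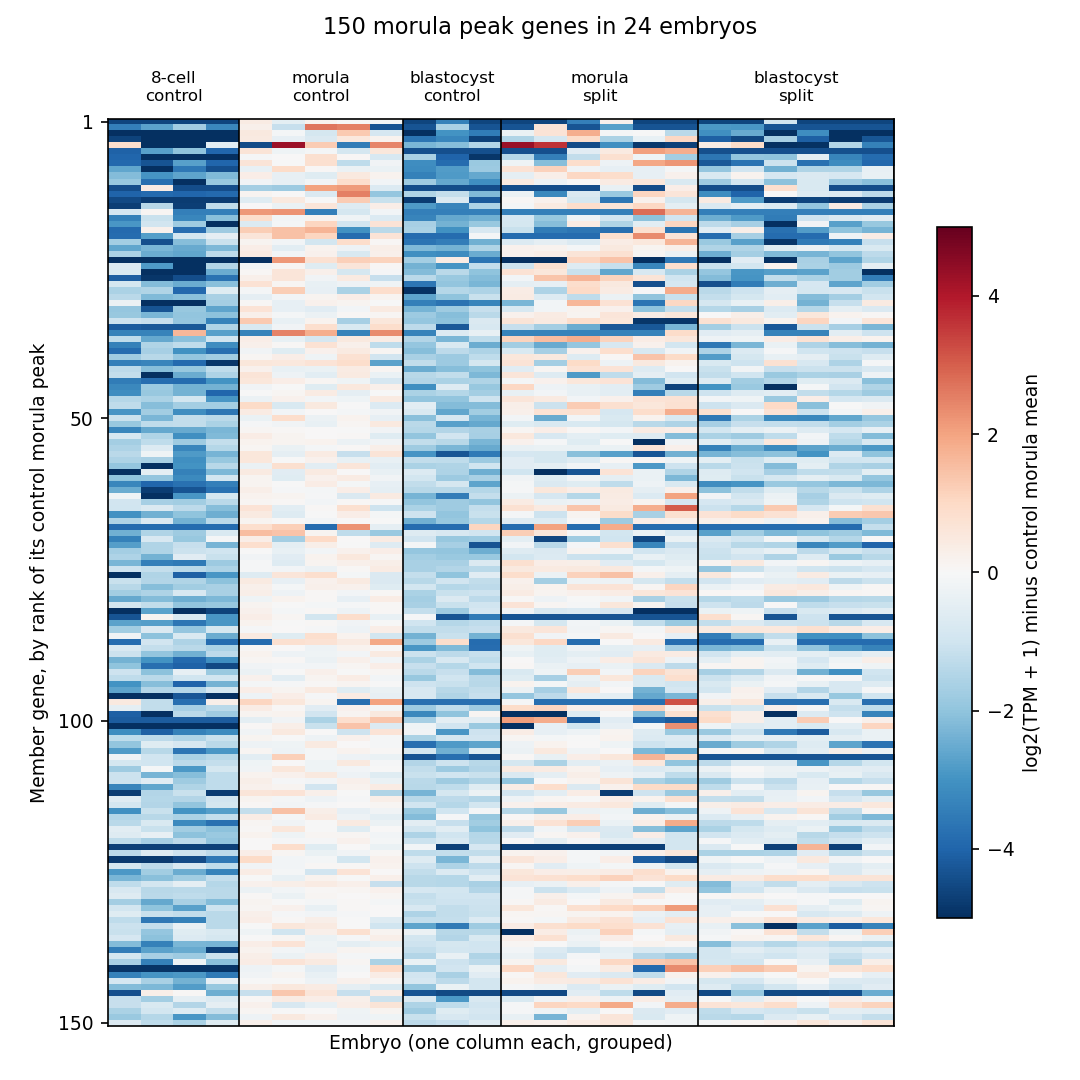
Level of each of the 150 members (rows, by rank of the control morula peak) in each of the 24 embryos (columns), as log2(TPM + 1) minus the member's mean over the 5 control morulae. Blue is lower and red is higher; colours end at -5 and 5. The split morula columns are mostly pale like the control morulae, with dark rows for members at or near 0, and the split blastocyst columns are paler than the control blastocyst columns.

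The members together stood high in split morulae and lower in split blastocysts. Summed over the 150 members, the level was 13167 to 18313 TPM in the 8-cell embryos, 39229 to 46424 TPM in control morulae and 11165 to 13546 TPM in control blastocysts. It was 43136 and 37952 TPM in the split morulae of pair 1, 43878 and 41820 TPM in pair 2, and 35058 and 30040 TPM in pair 3. In split blastocysts it was 18845 and 21681 TPM in pair 1, 27445 and 22227 TPM in pair 2, and 18581 and 19279 TPM in pair 3. Thus all 6 split morulae lay above all 6 split blastocysts. Of the split morulae, 3 lay within the control morula range and 3 below it, and all 6 split blastocysts lay above all 3 control blastocysts. The control embryos chose the members for being high at the morula and low at the blastocyst. Nothing is therefore read from the positions of split embryos against controls. Timd2 was by far the most abundant member in control morulae, and without it the means were 8559 ± 1036 TPM (SD, n = 4) at 8 cells, 28695 ± 1466 (n = 5) in control morulae, 10045 ± 274 (n = 3) in control blastocysts, 28389 ± 3160 (n = 6) in split morulae and 17937 ± 1696 (n = 6) in split blastocysts.

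**Figure D2:**
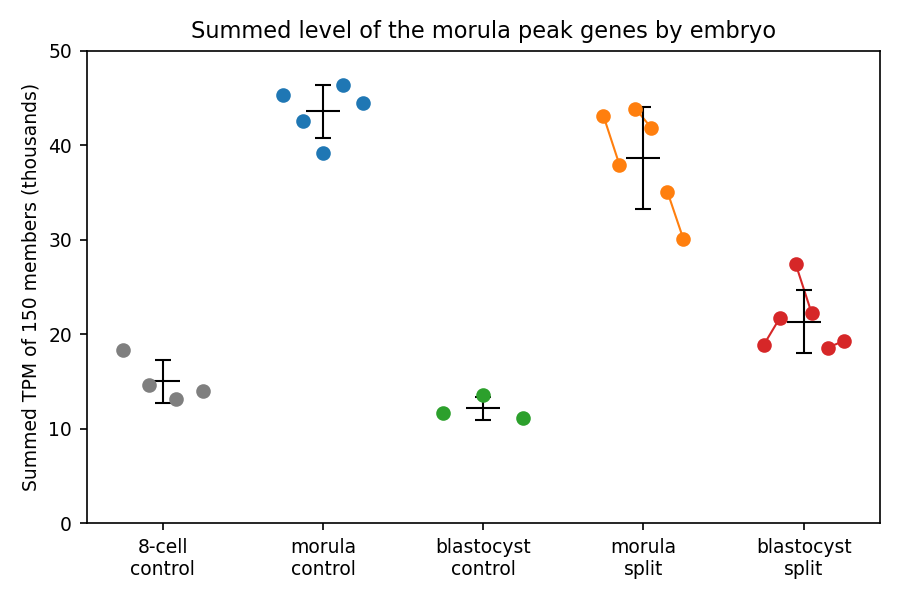
Summed TPM of the 150 members (in units of 1000 TPM, vertical axis from 0) in each embryo, by group. Points are embryos, lines join sisters of a pair, and bars are mean ± SD. Split morulae reach 30.0 to 43.9 and split blastocysts 18.6 to 27.4, and these ranges do not overlap.

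To ask whether single members followed the same course in embryos that had no part in choosing them, split blastocysts were tested against split morulae with edgeR's quasi-likelihood test on the raw counts, with the sisters of a pair summed, in a fit of all genes with adjusted p-values over 15875 genes. Of the 150 members, 23 fell (15.3%) at an adjusted p under 0.05, and none rose. Over all genes tested, 2.95% fell and 1.22% rose. Among the genes with a control morula mean of 20 TPM or more, 9.64% fell and 3.3% rose. At an unadjusted p under 0.05, 46 members were lower and 2 higher, but the share of all genes was not counted at this threshold, so nothing is read from it. A fitted value below 0, whether or not it passed, was found in 125 members, in 47% of all genes tested and in 56.3% of the genes with a control morula mean of 20 TPM or more, and these shares are the background for the counts of lower fitted values given by role. The median fitted log2 change was -0.72 for the members, 0.05 for all genes and -0.12 for the genes with a control morula mean of 20 TPM or more. Leaving out the split blastocysts of pair 3 left 9 members that fell, and leaving out those of pair 1 left 12. Fewer of all genes fell as well with 1 pair left out, as given in the closing section. The share of all genes in these fits is not given here, so nothing is read from the drop. In other analyses single members were called higher: Nat1 by DESeq2, with sisters fitted as separate samples, and without split blastocyst pair 3, and Gm39132 by limma on TPM.

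Split morulae had a higher mean TPM than split blastocysts in 124 members (82.7%). This held for 45.9% of all genes in the table and 54.3% of those with a control morula mean of 20 TPM or more. The split morula mean was above the 8-cell mean as well in 122 members (81.3%), against 27.6% and 31.5%. The 8-cell embryos chose the members for being low, so nothing is read from this second count. All 6 split morulae were above all 6 split blastocysts in 19 members (12.7%), against 2.57% and 8.32%, and no member showed the reverse, which 4.72% of all genes did. On means of sister pairs, 46 members (30.7%) had all 3 split morula pairs above all 3 split blastocyst pairs, against 10.4% and 23.6%. The median ratio of morula to blastocyst mean (each plus 1 TPM) was 1.57 in split embryos and 2.83 in controls, where the rule itself asked for a fall; the difference between these was not tested.

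**Figure D3:**
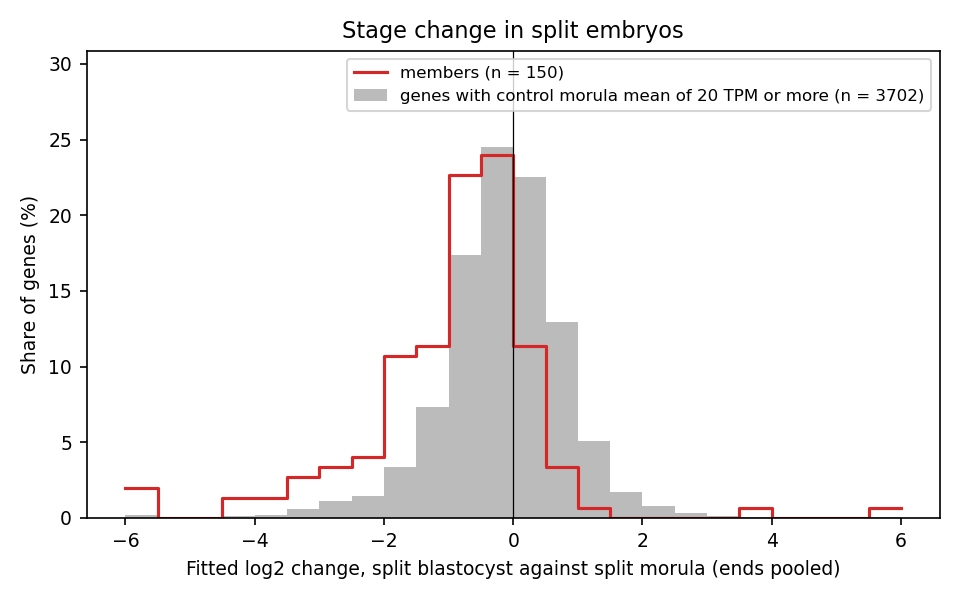
Share of genes (%) by fitted log2 change of split blastocysts against split morulae, in bins of 0.5 with the ends pooled at -6 and 6, for the 150 members (red line) and for all 3702 genes with a control morula mean of 20 TPM or more (grey bars). The members' median is -0.72 and that of the grey bars -0.12.

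Among the secreted and signalling members, Nppb had the highest rank, after 2 predicted genes. It encodes the precursor of brain natriuretic peptide, a hormone best known from the heart. Nppb was at 0 TPM in all 4 8-cell embryos, at 119, 79.5, 45.6, 207 and 47.0 TPM in the 5 control morulae, and at 0, 9.62 and 6.46 TPM in the control blastocysts. Split morulae had 32.1 to 296 TPM (median 81.1), and split blastocysts 0 to 14.0 TPM (median 4.45). The groups of split embryos did not overlap, yet the fitted change of -4.40 ± 1.34 (log2 ± SE) did not pass (adjusted p = 0.0795, edgeR). Frat1 encodes an inhibitor of the kinase GSK3 that favours Wnt signalling. It was at 1.26 to 4.07 TPM at 8 cells, at 77.7, 97.9, 57.1, 89.2 and 28.2 TPM in control morulae and at 24.6, 16.9 and 13.7 TPM in control blastocysts. Split morulae had 32.0 to 209 TPM (median 121) and split blastocysts 5.01 to 26.9 TPM (median 16.2), with no overlap. Frat1 fell by 3.02 ± 0.52 on the log2 scale in split embryos (adjusted p = 0.00142, edgeR).

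Lctl, a lactase-like protein, was at 42.1 to 105 TPM in control morulae and 5.96 to 15.8 TPM in control blastocysts. It was at 33.4 to 84.6 TPM in split morulae and 12.5 to 32.9 TPM in split blastocysts, with no overlap, and its fitted change of -1.69 ± 0.98 did not pass (adjusted p = 0.355, edgeR). Npy, the precursor of neuropeptide Y, had 5.80, 5.27, 86.5, 95.2 and 12.7 TPM in control morulae and 27.9 TPM in 1 of the 4 8-cell embryos, with 0 in the others and in all control blastocysts. In split embryos it was at 0 in 4 of 6 morulae and in 4 of 6 blastocysts, and at 15.9 and 26.7 TPM, and 38.0 and 11.9 TPM, in the rest. Il17b, an interleukin-17 family cytokine, was at 15 to 33.9 TPM in control morulae, 0 to 37.2 TPM in split morulae and 0 to 10.6 TPM in split blastocysts. Apoc2, a cofactor of lipoprotein lipase, was at 11.6 to 34.8 TPM, 1.08 to 33.5 TPM and 0.237 to 9.24 TPM in the same groups, and neither gene passed the test between the split stages. Of the 10 members in this group of genes, 1 fell, 0 rose and 7 had a lower fitted value in split blastocysts.

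Among the transcription factors, Noto had the highest rank after Nppb. It encodes a homeobox protein known for its role in the mouse node and notochord, which form days later. Noto was at 2.98, 0, 0 and 0.347 TPM at 8 cells, at 133, 73.4, 58.1, 143 and 109 TPM in control morulae and at 6.93, 9.26 and 2.90 TPM in control blastocysts. Split morulae had 31.6 to 199 TPM (median 64.7), and 5 of the 6 split blastocysts had 0.632 to 4.84 TPM, while pair 2 blastomere 1 had 30.5 TPM. The split groups did not overlap, and the fitted change of -3.70 ± 1.2 did not pass (adjusted p = 0.0988, edgeR).

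Zfp951 and Zfp985, predicted zinc finger proteins, were the members of this class that fell. Zfp951 was at 0.162 to 2.45 TPM at 8 cells, at 34.4, 21.7, 39.2, 8.58 and 19.3 TPM in control morulae and at 1.66, 0.585 and 5.33 TPM in control blastocysts. Split morulae had 4.22 to 104 TPM (median 30.1) and split blastocysts 0.212 to 9.86 TPM (median 0.747), which overlapped in 1 split blastocyst, again pair 2 blastomere 1. The fall of Zfp951 in split embryos was by 4.5 ± 1.11 on the log2 scale (adjusted p = 0.0232, edgeR), a call that ended in 5 of 14 other settings. Zfp985 was more abundant: 70.7 to 118 TPM at 8 cells, 1258, 1120, 1447, 1066 and 846 TPM in control morulae, and 481, 613 and 179 TPM in control blastocysts. Split morulae had 471 to 1068 TPM (median 713) and split blastocysts 129 to 309 TPM (median 236), with no overlap, and the fall by 1.84 ± 0.36 passed (adjusted p = 0.00441, edgeR). The forkhead gene Foxn2 (36.2 to 163 TPM in split morulae, 9.54 to 19.8 TPM in split blastocysts) did not overlap between the stages either, with an adjusted p of 0.089 (edgeR).

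**Figure D4:**
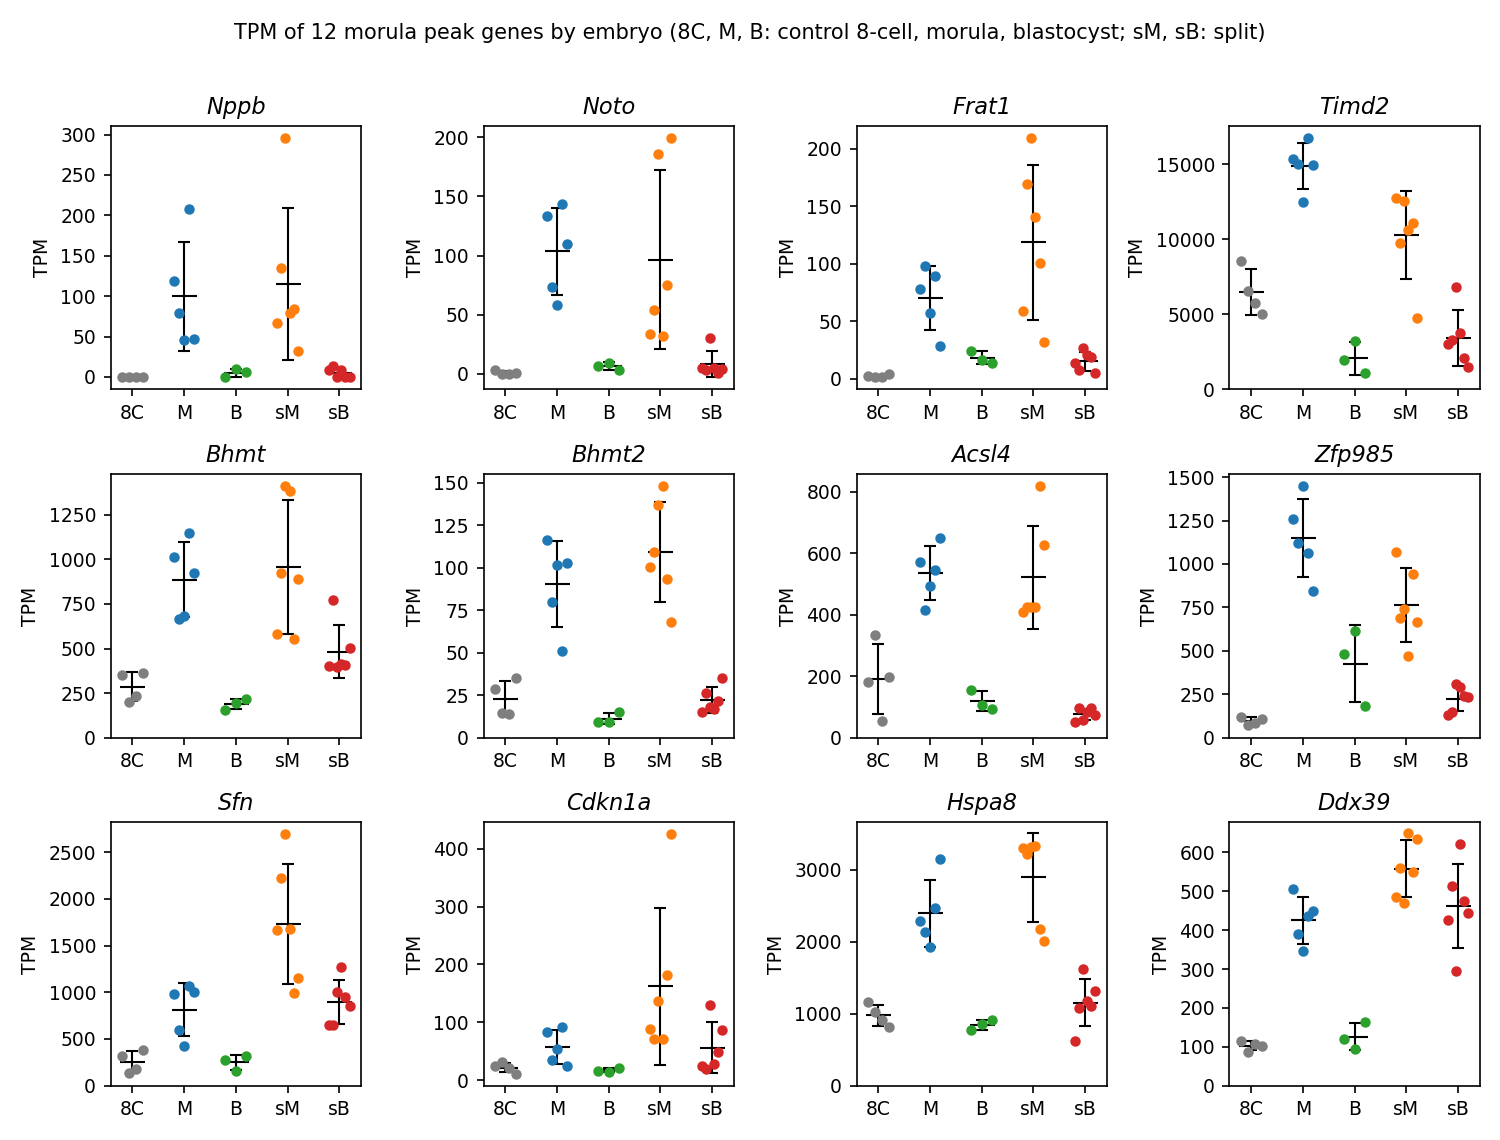
TPM of 12 members in each embryo (points), with the mean ± SD of each group (bars): control 8-cell (8C, n = 4), morula (M, n = 5) and blastocyst (B, n = 3), and split morula (sM, n = 6) and blastocyst (sB, n = 6). Each panel has its own linear axis. Nppb, Noto, Frat1, Bhmt2, Acsl4, Zfp985 and Hspa8 are lower in every split blastocyst than in every split morula, and Ddx39 overlaps between the split stages.

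The 8 members of methyl, amino acid, polyamine and purine metabolism all had a lower fitted value in split blastocysts, and 4 of them fell. Bhmt and Bhmt2 are adjacent genes for enzymes that pass a methyl group to homocysteine to make methionine, Bhmt from betaine and Bhmt2 from S-methylmethionine. Bhmt was at 351, 199, 234 and 361 TPM at 8 cells, at 1014, 664, 683, 1148 and 924 TPM in control morulae and at 156, 197 and 214 TPM in control blastocysts. In split embryos it was at 555 to 1415 TPM (median 905) in morulae and 394 to 775 TPM (median 412) in blastocysts, overlapping in split blastocyst pair 1 blastomere 2 alone. Bhmt2 was less abundant per length, at 51.1 to 116 TPM in control morulae and 8.90 to 15 TPM in control blastocysts. It was at 68.1 TPM or more (median 105) in split morulae and 15.1 to 34.8 TPM (median 19.8) in split blastocysts, with no overlap. Bhmt fell by 0.99 ± 0.27 and Bhmt2 by 2.32 ± 0.40 on the log2 scale (adjusted p = 0.0401 and 0.00125, edgeR). Both genes are similar in sequence, and how reads with several matches were counted is not given in the sources used here.

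Amd1, which makes the decarboxylated S-adenosylmethionine needed for spermidine and spermine, was at 116 to 186 TPM at 8 cells, at 363, 310, 232, 258 and 302 TPM in control morulae and at 120, 127 and 124 TPM in control blastocysts. Split morulae had 261 to 433 TPM (median 329) and split blastocysts 96.5 to 195 TPM (median 105), with no overlap and a fall by 1.43 ± 0.23 (adjusted p = 0.000692, edgeR). Glul, glutamine synthetase, was at 286 to 553 TPM in control morulae and 118 to 175 TPM in control blastocysts, and at 487 to 949 TPM and 175 to 500 TPM in split morulae and blastocysts, and fell by 1.37 ± 0.34 (adjusted p = 0.0241, edgeR). Tdh, threonine dehydrogenase, which mouse embryonic stem cells depend on, peaked at 30.0 to 72.1 TPM in control morulae but overlapped widely between split morulae (3.91 to 84.4 TPM) and split blastocysts (12.5 to 53.5 TPM), and did not pass (adjusted p = 0.84, edgeR).

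Members of lipid, steroid and sugar metabolism numbered 14, of which 3 fell and 13 had a lower fitted value. Acsl4 links coenzyme A to arachidonic and other polyunsaturated fatty acids. It was at 180, 333, 54.5 and 198 TPM at 8 cells, at 571, 416, 492, 545 and 649 TPM in control morulae and at 154, 107 and 91.6 TPM in control blastocysts. Split morulae had 409 to 818 TPM (median 425) and split blastocysts 50.2 to 94.9 TPM (median 76.9). Every split blastocyst was below every split morula, and the fall by 2.83 ± 0.42 (adjusted p = 0.000528, edgeR) passed in all 14 other settings. Slc25a20, the carnitine-acylcarnitine carrier of the inner mitochondrial membrane, was at 77.9 to 145 TPM in control morulae and 21.5 to 39.3 TPM in control blastocysts, and at 106 to 161 TPM and 39.2 to 92.8 TPM in split morulae and blastocysts, and fell by 1.11 ± 0.27 (adjusted p = 0.0173, edgeR). Pmm1, a phosphomannomutase that feeds mannose into glycosylation, fell by 0.88 ± 0.23 (adjusted p = 0.0323, edgeR).

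Akr1c14, a steroid dehydrogenase of the aldo-keto reductase family, followed the course only in part. It was at 0 in 3 of 4 8-cell embryos, at 62.1, 64.3, 112, 67.0 and 36.6 TPM in control morulae and at 20.4, 3.11 and 1.25 TPM in control blastocysts. Split morulae had 5.09 to 113 TPM (median 25.1) and split blastocysts 3.48 to 45.4 TPM (median 10.4), which overlapped widely (adjusted p = 0.695, edgeR). Elovl3, a fatty acid elongase, was at 47.1, 50.8, 0, 4.91 and 8.91 TPM in control morulae. Among split embryos it was seen only in the morulae of pair 3, at 72.9 and 34.3 TPM, and was listed at 0 in the other 4 and in all 6 split blastocysts.

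The cell surface group holds the most abundant member. Timd2 encodes a T-cell immunoglobulin and mucin domain protein that in mouse binds heavy-chain ferritin. It was at 8559, 6547, 5753 and 5002 TPM at 8 cells, at 15320, 14994, 12506, 16737 and 14923 TPM in control morulae and at 1949, 3255 and 1072 TPM in control blastocysts. Split morulae had 12757 and 9777 TPM in pair 1, 12542 and 10615 TPM in pair 2, and 11111 and 4748 TPM in pair 3. Split blastocysts had 3010 and 3282 TPM, 6800 and 3776 TPM, and 2104 and 1465 TPM in pairs 1, 2 and 3. The last split morula overlapped with 1 split blastocyst, and the fall by 1.68 ± 0.39 (adjusted p = 0.0198, edgeR) ended in 6 of 14 other settings, where its highest adjusted p was 0.112. Slc43a3, a nucleobase transporter, and Tmem184c, a membrane protein, fell by 1.54 and 2.09. H2-Ab1, a class II histocompatibility chain, was at 26.1 to 40.2 TPM in control morulae and at 4.08 to 16.9 TPM in control blastocysts, and overlapped between split morulae (16.2 to 107 TPM) and split blastocysts (13.8 to 53.3 TPM).

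Cell cycle and growth arrest genes made up 9 members, of which Ccne2 and Stk38l fell and 8 had a lower fitted value. Ccne2 encodes cyclin E2, which drives entry into S phase. It was at 70.3, 33.1, 91.9, 57.5 and 26.6 TPM in control morulae and at 8.93, 22.6 and 9.12 TPM in control blastocysts. Split morulae had 38.2 to 87.9 TPM (median 49) and split blastocysts 3.76 to 21.1 TPM (median 8.34), with no overlap and a fall by 2.63 ± 0.60 (adjusted p = 0.0115, edgeR). Stk38l, the kinase NDR2, was at 83.3 to 118 TPM in split morulae and 23.0 to 48.8 TPM in split blastocysts and fell by 1.43 ± 0.32 (adjusted p = 0.00999, edgeR).

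Sfn and Cdkn1a, both p53 targets that hold the cell cycle, were members whose mean was higher in split than in control morulae. Sfn, the 14-3-3 sigma protein of epithelia, was at 315, 130, 180 and 382 TPM at 8 cells, at 977, 596, 425, 1068 and 1003 TPM in control morulae and at 278, 156 and 314 TPM in control blastocysts. In split morulae it was at 1662, 2224, 2690, 1672, 994 and 1148 TPM, so that 5 of 6 were above all control morulae. In split blastocysts it was at 646 to 1265 TPM (median 904), and the change between the split stages of -0.99 ± 0.39 did not pass (adjusted p = 0.165, edgeR). Cdkn1a, the inhibitor p21, was at 83.8, 35.4, 53.7, 91.3 and 24.3 TPM in control morulae and at 14.4 to 21.7 TPM in control blastocysts. Split morulae had 88.1, 71.3, 137, 70.5, 181 and 425 TPM and split blastocysts 18.7 to 129 TPM (median 38.4), which overlapped (adjusted p = 0.112, edgeR). For neither gene did the difference between split and control morulae pass, with fitted log2 values of 0.92 ± 0.34 and 1.29 ± 0.46 and adjusted p-values of 0.252 and 0.244 (edgeR), and the control morulae had a part in choosing both.

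Of the 11 chaperone, ubiquitin and proteasome members, 2 fell, both of the Hsp70 family. Hspa8, the constitutive Hsc70, was at 820 to 1158 TPM at 8 cells, at 2293, 2138, 1920, 2462 and 3151 TPM in control morulae and at 770, 852 and 916 TPM in control blastocysts. Split morulae had 2012 to 3332 TPM and split blastocysts 621 to 1624 TPM, with no overlap, and Hspa8 fell by 1.38 ± 0.21 (adjusted p = 0.00052, edgeR). Hspa14, a ribosome-bound Hsp70, was at 224 to 272 TPM in control morulae and 81.5 to 94.9 TPM in control blastocysts, and at 234 to 339 TPM and 134 to 208 TPM in split morulae and blastocysts, and fell by 0.81 ± 0.20 (adjusted p = 0.0208, edgeR). Dnajb1, the Hsp40 partner of Hsp70, was at 97.5 to 149 TPM in control morulae and 135 to 560 TPM in split morulae, and its fitted change to split blastocysts was -1.2 ± 0.37 (adjusted p = 0.0716, edgeR).

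The proteasome and ubiquitin members had small fitted values between the split stages, and none passed. Psmc4, an ATPase of the proteasome cap, was at 792, 702, 734, 768 and 825 TPM in control morulae and at 381, 282 and 404 TPM in control blastocysts. It was at 501 to 1104 TPM (median 924) in split morulae and 930 to 1102 TPM (median 990) in split blastocysts, with a fitted change of 0.18 ± 0.23. Psmd10, Uchl5 and Ufd1, the last of which serves the extraction of ubiquitinated proteins, had fitted changes of -0.08 ± 0.41, -0.27 ± 0.21 and -0.11 ± 0.20.

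The largest group of named members, 18 genes of the endoplasmic reticulum, Golgi, autophagy and lysosome, had 3 that fell and 15 with a lower fitted value. Tmem59, a Golgi protein that can trigger autophagy, was at 2237, 2163, 1907, 2192 and 2021 TPM in control morulae and at 537, 613 and 532 TPM in control blastocysts. Split morulae had 1177 to 2764 TPM and split blastocysts 735 to 1828 TPM, which overlapped, with a fall by 0.89 ± 0.19 (adjusted p = 0.00901, edgeR). Golt1b, a Golgi transport protein, and Tm2d3 each fell by 1.16. Tmem41b, which moves phospholipids across the membrane of the endoplasmic reticulum, was at 1765 to 2833 TPM in control morulae and 417 to 596 TPM in control blastocysts. In split embryos it was at 1173 to 2489 TPM in morulae and 912 to 1744 TPM in blastocysts, and did not pass (adjusted p = 0.243, edgeR). Sec13, a coat protein of vesicles leaving the endoplasmic reticulum, was at 185 to 272 TPM in control morulae, 92.7 to 97.5 TPM in control blastocysts, 195 to 334 TPM in split morulae and 276 to 377 TPM in split blastocysts.

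None of the 13 mitochondrial members, the 6 of RNA processing and protein modification, or the 3 of oxidative stress and copper handling fell or rose between the split stages. Ddx39, an RNA helicase of the mRNA export pathway, was at 86.7 to 114 TPM at 8 cells, at 505, 391, 346, 437 and 449 TPM in control morulae and at 120, 94.5 and 164 TPM in control blastocysts. Split morulae had 470 to 649 TPM and split blastocysts 294 to 622 TPM, and the fitted change was -0.28 ± 0.18. Ciapin1, needed for iron-sulphur cluster assembly in the cytosol, was at 42.0 to 64.9 TPM in control morulae and 19.6 to 38.1 TPM in control blastocysts, and at 88.1 to 122 TPM and 74.0 to 102 TPM in split morulae and blastocysts. Hmox1, haem oxygenase 1, was at 0 in all 8-cell embryos, at 23.9, 27.0, 19, 26.6 and 59.0 TPM in control morulae and at 7.66, 14.5 and 22.5 TPM in control blastocysts. In split morulae it ranged from 1.00 TPM to 154 TPM, both in pair 3, and in split blastocysts from 31.4 to 82.9 TPM, above all control blastocysts.

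The 36 predicted or unannotated genes had 3 that fell and 32 with a lower fitted value. Gm5532 had 5.62 to 15.8 TPM at 8 cells, 12.9 to 44.9 TPM in control morulae and 14.5 to 63.3 TPM in split morulae, and was at 0 counts in all 6 split blastocysts. Against a floor of 3 counts over that group it was at least 1043-fold lower there than in split morulae (adjusted p = 0.000106, edgeR). Gm44693 was at 0 in all split and all control blastocysts and in both split morulae of pair 1, and at 13.1 to 84.8 TPM in the other split morulae, at least 226-fold lower in split blastocysts (adjusted p = 0.0358, edgeR). 2610044O15Rik8 fell by 2.21. Gm4131, of highest rank of all, was at 31.6, 16.4, 26.7, 23.1 and 21.7 TPM in control morulae, but at 0 in 4 of 6 split morulae, with 27.6 TPM in 1. Gm17387, at the second rank, was at 0 in 1 control morula and at 113 and 127 TPM in 2 others, and its score rests on a mean of 25 reads per control morula.

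Some members were low in split morulae although the control morulae had them. Nat1, an arylamine N-acetyltransferase, was at 23.7, 19.9, 9.41, 35.6 and 14.1 TPM in control morulae and at 0 counts in all 6 split morulae, and at 0 in 3 of the 6 split blastocysts, with 8.69 to 34.0 TPM in the others. Against a floor of 3 counts over the split morulae its level in split blastocysts was at least 214-fold higher, which did not pass in the fit (adjusted p = 0.0605, edgeR). Gm39132 was at 15.6 to 45.1 TPM in control morulae and at 0 in 5 of 6 split morulae. Zpbp2, a gene of the sperm acrosome, was at 10.2 to 33.7 TPM and at 0 to 7.44 TPM in the same groups. Over all members, the ratio of split to control morula mean (each plus 1 TPM) ran from 0.0464 for Nat1 to 2.78 for Cdkn1a, with a median of 0.873. The ratio was 2 or more for 4 members (Cdkn1a, Dnajb1, Sfn and Atp6ap1) and 0.5 or less for 19. Of the split morula medians, 23 were above all control morulae, 82 within their range and 45 below all of them. No member was called in either direction between split and control morulae, against a background of 0.0567% lower and 0.0693% higher over all genes and of 0.216% lower and 0.216% higher over those with a control morula mean of 20 TPM or more. At an unadjusted p under 0.05, 18 members were lower and 5 higher. DESeq2 called 3 members lower and limma-voom 7 lower and 1 higher, Nat1 among the lower ones in both. Since control morulae chose the members for being high, nothing is read from these counts.

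At the blastocyst, split embryos stood above controls in most members. The ratio of split to control blastocyst mean (each plus 1 TPM) had a median of 1.58, was above 1 for 125 members and 2 or more for 49. The split blastocyst mean lay between the control blastocyst and split morula means in 101 members. The shares of all genes were not counted for these ratios and positions. The median fitted log2 value was 0.94 for members and 0 for all genes tested. It was 0.37 for the genes with a control morula mean of 20 TPM or more. The fit called 31 members higher in split than in control blastocysts (20.7%) and none lower, against 3.42% and 1.32% of all genes and 13.9% and 3.4% of the genes with a control morula mean of 20 TPM or more. At an unadjusted p under 0.05, 60 members were higher and 1 lower, with no share of all genes counted at this threshold. DESeq2 called 1 lower, Gm5532, and limma-voom called 14 higher. Control blastocysts chose the members for being low, so these counts are a description. By role, 9 of the 31 were of the endoplasmic reticulum, Golgi, autophagy and lysosome, and 6 were chaperone, ubiquitin and proteasome genes. All 3 oxidative stress genes were among the 31. Their calls did not hold throughout: of 14 other settings, that of Ccs ended in 6, that of Hmox1 in 8 and that of Prdx6 in 9. Among the highest fitted values were 2.70 ± 0.35 for Gm5096, 2.24 ± 0.59 for Hmox1, 2.20 ± 0.36 for Atp6ap1, an accessory part of the vacuolar proton pump, and 2.15 ± 0.18 for Ddx39. Bhmt, Glul, Hspa14, Pmm1, Slc25a20 and Tmem59 both fell between the split stages and were among the 31.

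**Figure D5:**
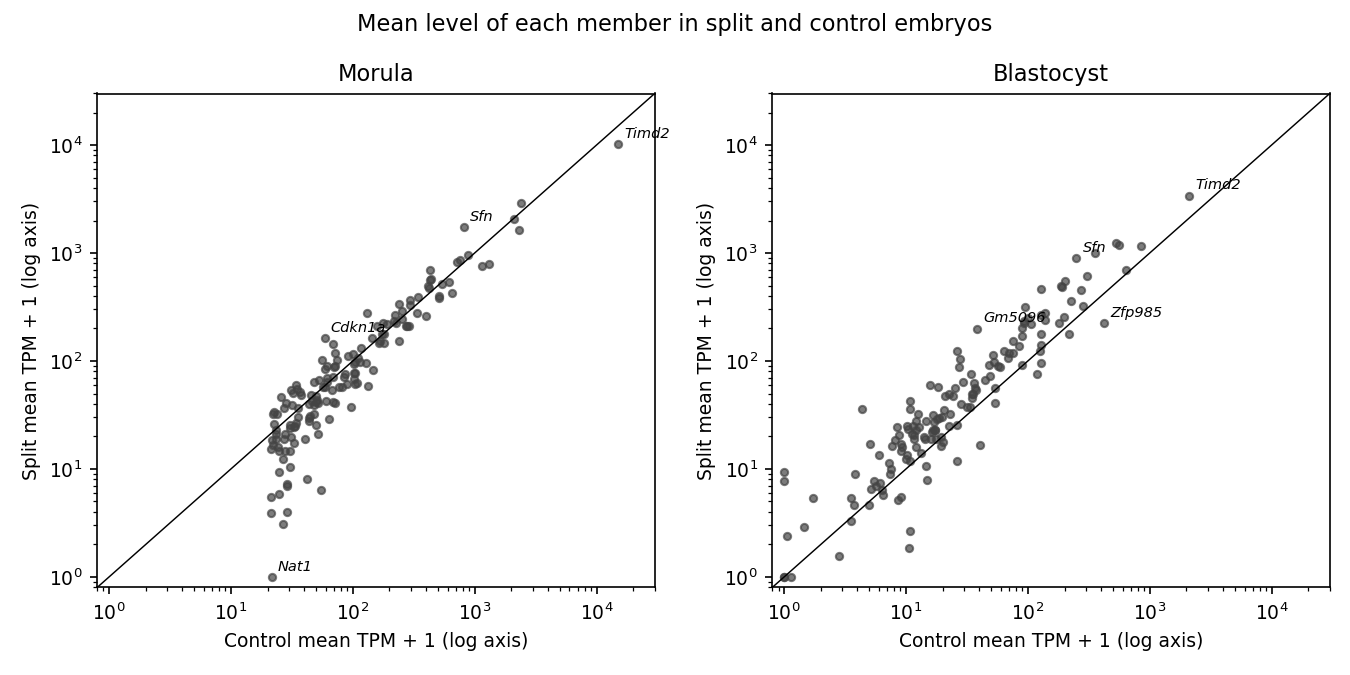
Mean TPM plus 1 of each member in split embryos (vertical) against control embryos (horizontal), both on log axes, at the morula (left; split n = 6, control n = 5) and the blastocyst (right; split n = 6, control n = 3). The line marks equal levels. At the morula the points lie on both sides of the line (median ratio 0.873), with Nat1 at 0 in split embryos, and at the blastocyst 125 of 150 lie above it.

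By correlation, sister morulae were more alike than other pairs of split morulae. Across the 150 members, Pearson's r of log2(TPM + 1) was 0.815 to 0.885 for the 3 sister pairs of split morulae and 0.621 to 0.810 for the 12 pairs of split morulae that were not sisters. Control morulae, whose origin is not given, had 0.764 to 0.886 over 10 pairs. For split blastocysts the ranges were 0.847 to 0.949 for sisters and 0.796 to 0.919 otherwise, and overlapped. These values are across genes within libraries, and genes are not independent replicates. The median absolute log2 difference of the members between sister morulae was 0.445 to 0.639, and 0.481 to 0.936 between split morulae that were not sisters, which overlap. For sisters it was 0.369 to 0.570 over all genes with a control morula mean of 20 TPM or more. The largest differences between sister morulae were Gm22304 (0 and 121 TPM) and Hmox1 (1.00 and 154 TPM), both in pair 3. Between the sister blastocysts of pair 2, Gm39132 differed widely as well (0 and 80.3 TPM). Split blastocyst pair 2 blastomere 1 had the highest value of its group in 41 members (27.3%), against 22.0% of the genes with a control morula mean of 20 TPM or more, and the largest summed level of the members. It had the fewest counted reads among the split blastocysts, at 13.4 M, and the part of this in its levels was not tested.

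The gene lists for the embryo's lineages and pathways hold few members. Of 17 such lists, 7 held 1 or 2 members: trophectoderm (Sfn), epiblast and pluripotency (Tdh), p53 targets (Sfn and Cdkn1a), antioxidant and metal stress (Prdx6 and Hmox1), heat shock and unfolded protein response (Hspa8 and Dnajb1), lysosome and endocytosis (Gla), and DNA replication and mitosis (Ccne2 and Bub3). The other 10 lists held none. Among them were cleavage-stage and preimplantation homeobox genes, primitive endoderm, cell junction and cavitation, Hippo pathway, cholesterol and fatty acid synthesis, glycolysis, and imprinted genes. The share of genes called between split morulae and split blastocysts, as background, was 2.95% lower and 1.22% higher over all genes tested, and 9.64% and 3.3% over those with a control morula mean of 20 TPM or more. In that comparison, 8 of the 40 tested replication and mitosis genes fell and 0 rose, with a median of -0.50 (log2). Of 18 tested cleavage-stage and preimplantation homeobox genes 6 fell and 0 rose, with a median of -1.15. Of 25 DNA methylation and chromatin genes 5 fell and 0 rose, with a median of -0.23. Of 27 epiblast genes 4 fell and 0 rose, with a median of -0.28. Of 30 trophectoderm genes 0 fell and 2 rose, Gata2 and Krt18, with a median of 1.17, and of 33 cholesterol and fatty acid genes 0 fell and 11 rose, with a median of 1.88, beside 0.05 over all genes tested. For p53 targets 1 of 23 fell, for heat shock and unfolded protein genes 3 of 27 fell and 6 rose, for antioxidant genes 0 of 30 fell and 6 rose, and for lysosome genes 4 of 29 fell and 1 rose.

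Members shared a few features that the rule did not name. One of them, transcript length, entered the rule through TPM, so that feature is not independent of the choice. Reads per unit of TPM, which scale with the transcript length used by the authors, were lower than for other genes: relative to a common value the median was 0.563 for members, 0.737 for genes with a control morula mean of 20 TPM or more and 0.913 for all genes in the table, so members had shorter assigned lengths. In RefSeq gene order, Bhmt and Bhmt2, and Dcxr and Cbr2, stand next to each other, and Dcxr and Cbr2 are a pair of carbonyl and xylulose reductases. Cbr2 was at 35.2 to 54.3 TPM in control morulae and 2.68 to 3.80 TPM in control blastocysts, and at 2.75 to 149 TPM and 8.32 to 64.5 TPM in split morulae and blastocysts. The pairs Golga7 and Sfrp1, Eef2kmt and Gm41414, and Dnajb1 and Ddx39 had 4 or fewer genes between them.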

How the data were processed

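RNA of 24 single embryos was measured by Smart-seq2. The submitters' processing notes name HISAT2, featureCounts, cutadapt, edgeR, FastQC and MultiQC, and the build GRCm39, with no role or version, and the annotation, strand setting and treatment of reads with several matches are not given in the sources used here. The authors deposited raw read counts of 37229 genes and TPM values of 15625 genes. TPM chose and describe the members, and the counts carry the tests. The members, their roles and the gene lists were chosen with earlier results of these data known.

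The counts of both sisters of a pair were summed, which gave 18 samples in 5 groups with 13 residual degrees of freedom. The labels do not say whether controls came from separate matings, so a p-value covers only how these samples vary. Genes were kept by filterByExpr (15875), scaled by TMM and tested in 1 fit with edgeR 4.0.16 (quasi-likelihood, robust, two-sided, Benjamini-Hochberg, calls at 0.05, no minimum fold) in R 4.3.3; all 150 members passed the filter. The fit was tested on simulated data. Alternatives used DESeq2 1.42.0, limma 3.58.1, other filters, scalings and samples. The same pair or replicate number was not taken to pair samples. Between the split stages, deviations of samples with the same number correlated at 0.0208 to 0.0365. Those of samples with different numbers correlated at -0.0328 to 0.00879. All of these values were small, and the difference between them was not tested. No pair of libraries held the same counts for all genes. Libraries carry no molecular identifiers, so floors (3 counts over a group) cover counting error only. Members are named by rank, abundance, size of change, list and role. A member is not reported here by name.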

Additional observations from a re-analysis of the deposited data

Results flagged for a closer look

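In 17 of 132 groups of 4 to 6 embryos, 1 embryo stood apart from its group by more than Dixon's 95% limit. For independent values with a normal spread, chance alone does this in about 1 of 20 groups. Some groups here had 0 TPM in all embryos but 1, and split groups hold sisters. That rate does not apply to such groups, so nothing is read from the count. At the 8-cell stage the embryos that stood apart were control replicate 1 for Noto (2.98 TPM) and Akr1c14 (3.14 TPM), and replicate 2 for Npy (27.9 TPM). Replicate 3 did so for Zfp951 (2.45 TPM), and each was the highest of 4. In control morulae they were replicate 5 for Hmox1 (59.0 TPM) and replicate 2 for Gm5532 (44.9 TPM). In split morulae pair 3 blastomere 2 was the lowest for Timd2 (4748 TPM) and the highest for Cdkn1a (425 TPM), pair 2 blastomere 2 the highest for Gm4131 (27.6 TPM) and pair 1 blastomere 2 the highest for Gm17387 (30.2 TPM).

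Among split blastocysts, pair 2 blastomere 1 was the highest for Noto (30.5 TPM), Npy (38.0 TPM), Zfp951 (9.86 TPM) and Gm4131 (11.3 TPM). Its sister was the highest for Akr1c14 (45.4 TPM). Pair 1 blastomere 2 was the highest for Bhmt (775 TPM) and Gm5096 (319 TPM).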

How the results depend on the processing

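Of the 150 members, ranking on CPM kept 91, a morula mean of 50 TPM or more 89, and leaving out 1 control embryo 124 to 142. The 23 members that fell between the split stages became 44 with limma-voom and 40 with sisters fitted as separate samples, and 9 to 18 with 1 pair left out. Members that rose were 1 with DESeq2, limma-voom, sisters as separate samples or limma on TPM, and 0 to 1 with 1 pair left out. Over all genes, 468 fell and 194 rose; these became 947 and 910 with DESeq2, 778 and 2125 with limma-voom, 1088 and 1117 with sisters as separate samples, 215 genes falling with only the compared groups fitted and 859 rising with limma on TPM, and 220 to 453 and 71 to 179 with 1 pair left out. The median of all genes in this comparison was 0.51 with limma-voom against 0.05, and relative to it the members' median was -1.11 against -0.77. The members' median was -0.58 with limma on TPM, -0.59 for members ranked on CPM, and -0.76 to -0.64 with 1 pair left out. Members with all split morulae above all split blastocysts were 46 on pair means and 22 to 33 with 1 pair left out. With fewer embryos such a separation is easier for any gene. The matching share of all genes with 1 pair left out is not given here, so nothing is read from the 22 to 33.

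Between split and control morulae, members called lower were 3 with DESeq2, 7 with limma-voom, and 1 with sisters as separate samples or only the compared groups, and 1 was higher with limma-voom. Between split and control blastocysts, 14 were higher with limma-voom, and 1 was lower with DESeq2, sisters as separate samples or only the compared groups, and 0 to 2 with 1 sample left out. With the replicate number as a block, 20 members fell and 0 rose, beside 417 and 182 of all genes. In that fit 29 members were higher in split than in control blastocysts. The labels link these samples by number only. For the counts against control embryos, the shares of all genes in the same settings are not given here. Control embryos chose the members, so nothing is read from those counts. Of the 23 calls of a fall, 8 held in all settings run: Acsl4, Amd1, Bhmt2, Frat1, Gm5532, Hspa8, Tmem184c and Zfp985. Of the 31 calls against control blastocysts 12 did, and no call of either kind changed direction. The cause of these differences was not tested. Depth limits the 10 members with fewer than 100 reads per control morula, and Elovl3, Nat1 and 4930550L24Rik, with more reads, had standard errors of 4.37, 3.00 and 2.92 (log2) between the split stages.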
